A study of Mus musculus with 12 samples.

Results

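The comparison was between liver RNA of 4 Atp7b-/- mice, named KO_drug here, that received an LXR (liver X receptor) agonist with their food, and of 4 heterozygous control mice, named Het. Its genes were all those with 10 or more counts in at least 4 of these 8 libraries, which kept 12643 of the 24532 listed genes and 99.95% of the counts. The series has 12 libraries, and those of untreated Atp7b-/- mice were not used. Het and KO_drug mice shared the strain C57BL/6x129S6/SvEv and the age of 20 wk. The labels do not name the agonist, its dose or its duration, nor the sex and litter of the mice or how the Atp7b allele was disrupted. Genotype and feeding both differ between these groups, so that their effects cannot be told apart here.

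Atp7b is a copper-transporting ATPase of the hepatocyte that loads copper onto ceruloplasmin and exports it to bile, and its loss causes Wilson disease, in which copper builds up in the liver. The LXR are nuclear receptors that are activated by oxysterols and form a pair with the retinoid X receptor. In liver they are known to turn on genes of cholesterol efflux and of fatty acid synthesis.

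Library totals, in units of 1e+06 counts, were 22.81 ± 2.311 in Het (SD, n = 4; 19.72 to 25.05) and 19.7 ± 0.5942 in KO_drug (n = 4; 18.84 to 20.17). Levels are given as CPM, counts per 1e+06 counts after TMM scaling, and changes as the log2 of KO_drug over Het with the standard error (SE) of that log2 value. A gene was called when the adjusted p of edgeR's quasi-likelihood test (two-sided, Benjamini-Hochberg over the 12643 genes) was under 0.05. Of the genes tested, 2642 were called (20.9%): 1614 were higher in KO_drug (12.8%) and 1028 lower (8.13%). At least 2-fold changes made up 928 of the higher and 331 of the lower calls (7.34% and 2.62% of genes tested), and at least 8-fold changes 283 and 28. Scaling by total counts in place of TMM gave 2087 higher and 440 lower calls, so that 82.6% instead of 61.1% of the calls were higher, and it moved the median log2 change of all tested genes from 0.0040 to 0.17. The number of lower calls also fell to 664 without Het 2, 671 without KO_drug 3 and 675 without KO_drug 4.

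A few libraries stood apart from their group. On the first principal component, with 61.79% of the variance, the Het libraries lay at -54.5 to -48.8 and KO_drug 1 to 4 at 65.5, 37.9, 51.3 and 53.4, so that KO_drug 2 lay nearest to Het. On the second component, with 8.711% of the variance, Het 1 lay alone at 42.5. A total of 841 tested genes separated the groups only when KO_drug 2 was left out, and 1013 only when Het 1 was left out, against 409 to 526 for each of the other 6 libraries. Some of the results that rest on these libraries are given with and without them. In whole liver, a lower level of a gene can come from fewer cells of a type or from less RNA per cell, and these cannot be told apart. The p-values measure the spread between these 8 libraries.

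The genes are described below by list, and a list is read against the share of all tested genes called in the same direction. Members named from a list were mostly those with its smallest p, a choice that favours groups without overlap. Among all tested genes, the groups did not overlap for 14.2% with KO_drug higher and 10.8% with KO_drug lower. Among lists with at least 10 tested members, the largest shares called higher were in the p53 target, mitosis and LXR target lists, and the largest shares called lower were among the major urinary proteins, the genes of endoplasmic reticulum stress and the male-biased liver genes. No member was called among 30 respiratory chain subunits, whose median log2 change was -0.20, or among 19 endothelial markers, whose median was -0.09 (0.090 with total-count scaling). At an unadjusted p under 0.05, edgeR gave 6 lower respiratory chain members and 0 endothelial ones, and DESeq2 called 2 and 0.

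**Figure D1:**
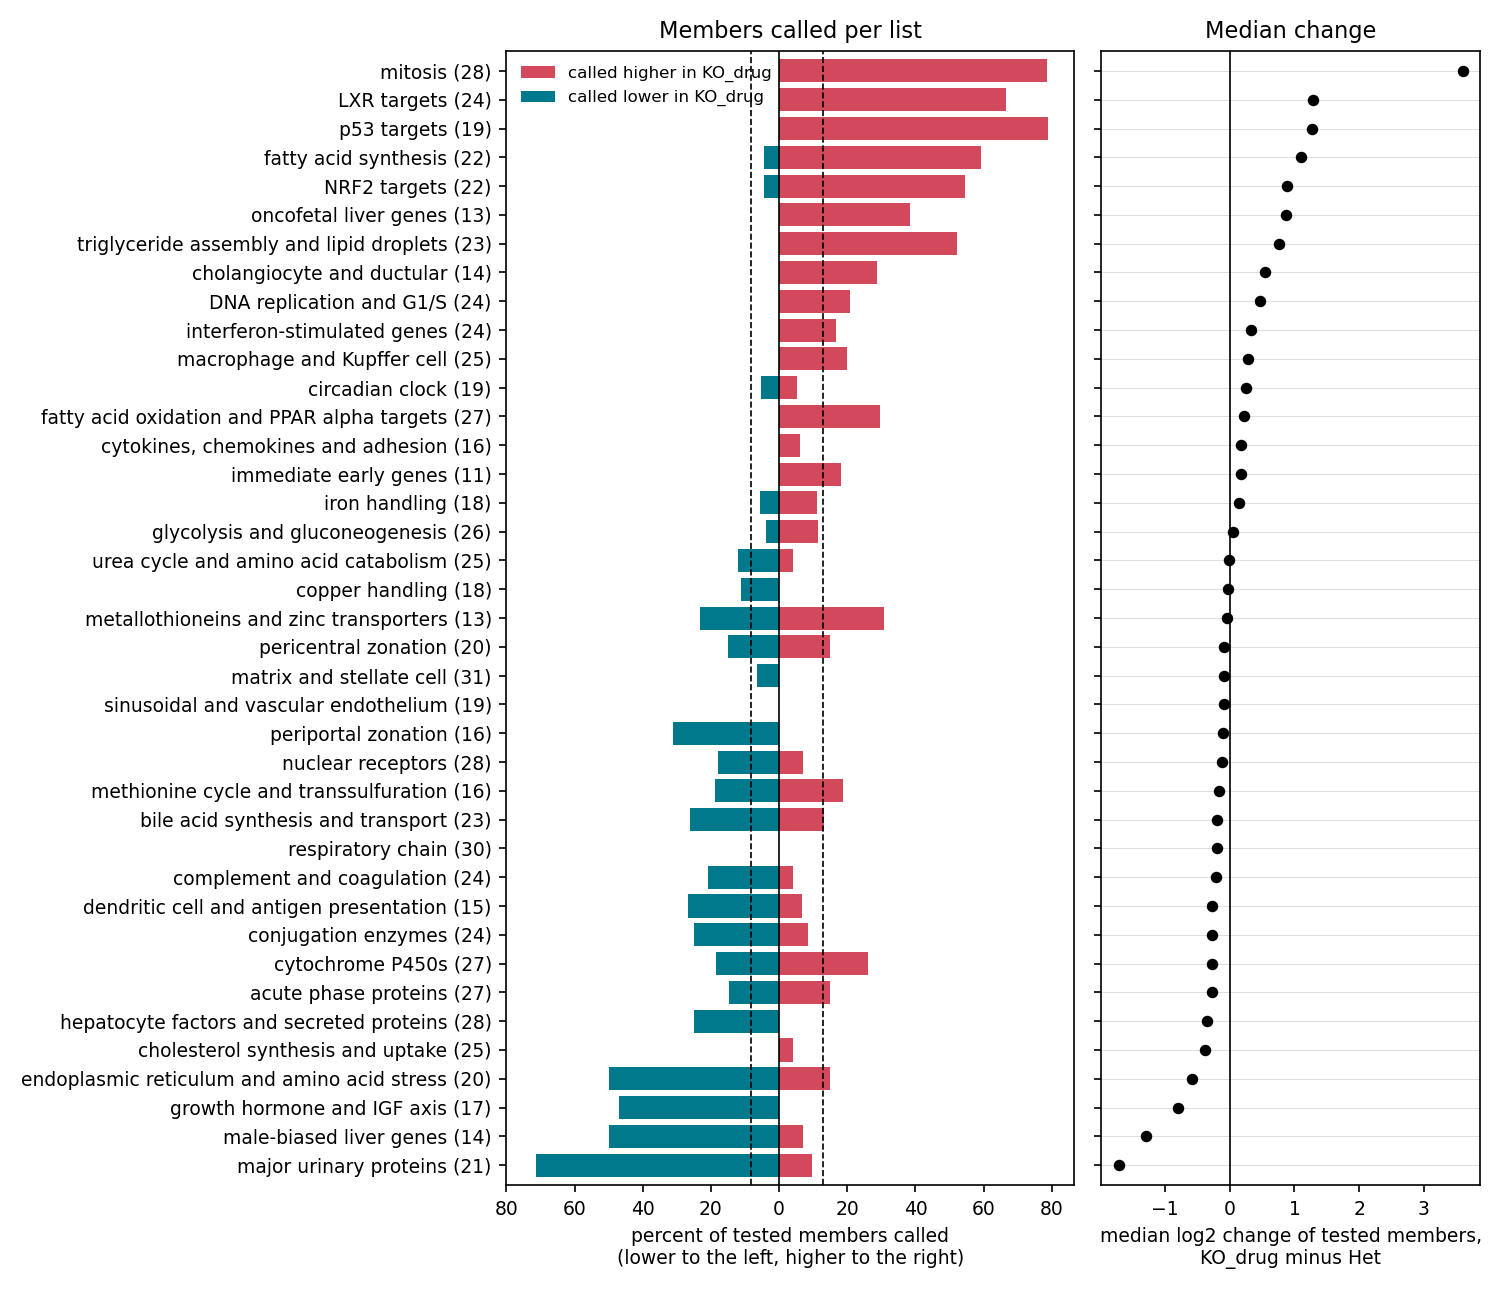
Each row is a gene list with at least 10 tested members (number in brackets). The left panel shows the percent of tested members called higher (red, to the right) or lower (teal, to the left) in KO_drug, with the shares over all tested genes, 12.8% and 8.13%, as dashed lines, and the right panel shows the median log2 change; 22 of 28 mitosis genes were called higher and 15 of 21 major urinary proteins lower.

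Atp7b (gene number 11979, chr8:21992783-22060074 of mm10) was read first, since it bears on the labels. It stood at 8.77, 11.85, 10.99 and 14.7 CPM in Het 1 to 4 and at 1.20, 3.16, 1.16 and 2.55 CPM in KO_drug 1 to 4. Every KO_drug library lay below every Het library, a 5.72-fold lower level (log2 -2.52, SE 0.33, adjusted p = 0.000471). An exact two-sided permutation test over the 8 libraries gave p = 0.0286, the smallest it can give. Reads that remained in KO_drug may fall on parts of the gene that the allele keeps, which the labels do not describe. Within 10 Mb of Atp7b, 20 of 82 other tested genes were called (24.4%), beside 20.9% of the genes elsewhere.

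Among 18 genes of copper handling, 2 were called, both lower, a share near the 8.13% of all genes. Steap2, a metalloreductase that prepares copper and iron for uptake, stood at 14.2 to 16.0 CPM in Het and 4.38 to 9.65 in KO_drug, 2.28-fold lower (log2 -1.19, SE 0.21, adjusted p = 0.00298). Slc31a1, which encodes the copper importer CTR1, fell from 137 ± 14.7 to 67.3 ± 19.9 CPM (SD, n = 4 each), 2.03-fold, with no overlap between groups (adjusted p = 0.00433). It overlaps Fkbp15 in the annotation, and how the authors shared out reads of overlapping genes is not stated. The list's median log2 change was -0.03, beside 0.0040 over all genes, and turned to 0.14 with total-count scaling. Cp, which encodes the copper-carrying plasma protein ceruloplasmin, had 1834 to 1880 CPM in Het 2, 3 and 4, 646 in Het 1 and 1376 to 1646 in KO_drug. Its log2 change was -0.04 (SE 0.30, adjusted p = 0.94), and -0.30 without Het 1. Atox1, the chaperone that hands copper to Atp7b, had a log2 change of 0.50 (SE 0.17, adjusted p = 0.0559), which became 0.68 (adjusted p = 0.00445) without Het 1. With all libraries, Atox1 was called higher by DESeq2 (0.49, adjusted p = 0.0271) and by voom with sample weights (0.62, adjusted p = 0.00531). An edgeR fit with the replicate number as a block also called it (0.52, adjusted p = 0.0337), and the other alternatives with all libraries did not. Cox17, a copper chaperone of the mitochondrion, went from 0.40 (adjusted p = 0.118) to 0.59 (adjusted p = 0.00654) without Het 1. With all libraries, only voom with sample weights called Cox17 higher (0.52, adjusted p = 0.013). The antioxidant enzyme gene Sod1, whose product holds copper, was at 613 ± 99.6 CPM in Het and 606 ± 50.8 in KO_drug.

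The metallothioneins were among the steepest rises of genes that both groups expressed. Metallothioneins are small cysteine-rich proteins that bind zinc and copper, and the metal-sensing factor MTF1 is known to turn on their genes through metal response elements. Those elements are shown here because Mt1 and Mt2 rose together and lie next to each other on chromosome 8. The windows below run from 250 bases before to 50 after each RefSeq start (GRCm38.p6, the mm10 assembly), at chr8:94178839-94179138 for Mt1 and chr8:94172368-94172667 for Mt2, both on the plus strand. Capitals mark the element's core on either strand, TGCACNC or TGCGCNC.

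Mt1: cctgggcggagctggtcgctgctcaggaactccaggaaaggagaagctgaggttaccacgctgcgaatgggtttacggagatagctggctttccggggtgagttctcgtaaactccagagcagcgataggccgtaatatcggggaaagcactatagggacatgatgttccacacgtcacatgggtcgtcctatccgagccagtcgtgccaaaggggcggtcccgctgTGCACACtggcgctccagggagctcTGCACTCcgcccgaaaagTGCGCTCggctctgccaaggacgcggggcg

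Mt2: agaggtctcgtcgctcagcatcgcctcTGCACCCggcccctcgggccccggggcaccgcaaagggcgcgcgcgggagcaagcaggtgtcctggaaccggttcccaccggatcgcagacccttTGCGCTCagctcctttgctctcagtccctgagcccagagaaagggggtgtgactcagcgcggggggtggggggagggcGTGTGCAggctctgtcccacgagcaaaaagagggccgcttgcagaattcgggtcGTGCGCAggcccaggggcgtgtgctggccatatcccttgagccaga

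The Mt1 window held 3 matches, at -23 to -17, 3 to 9 and 21 to 27 from the start, and the Mt2 window held 4, the first at -223 and the last at 5. At least 1 match occurred in 25.7% of the 32851 mouse windows of this length and 4 or more in 0.517%. Among the 9703 windows of tested genes the shares were 35.7% and 0.886%. A match is a description of the letters and not of binding.

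Mt1 stood at 25.2, 10.4, 54.6 and 218 CPM in Het 1 to 4 and at 3168, 2592, 2324 and 2086 CPM in KO_drug 1 to 4. All KO_drug libraries lay far above all Het libraries, and Het 4 was the highest of its group. The rise was 32.9-fold (log2 5.04, SE 0.84, adjusted p = 0.0021), and its log2 was 6.4 without Het 4. Mt2 had 2.97, 2.16, 16.9 and 107 CPM in Het and 1602, 1253, 869 and 945 in KO_drug, a 36.2-fold rise (log2 5.18, SE 1.13, adjusted p = 0.00919), which was log2 7.32 without Het 4. Het 4 was thus high for both genes, so that Het varied more than KO_drug relative to its level, though not in CPM.

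Among 13 tested metallothionein and zinc transporter genes, 4 were higher and 3 lower, beside 12.8% and 8.13% of all genes. The list's median log2 change was -0.05 (0.12 with total-count scaling). Slc30a1, the zinc exporter of the cell membrane, rose from 37.4 ± 12.9 to 96.7 ± 10.5 CPM (2.59-fold, adjusted p = 0.00214). Slc39a5, a zinc importer, was nearly silent in Het, with 0 to 0.334 CPM, and stood at 1.11 to 1.89 CPM in KO_drug (log2 3.40, SE 0.59, adjusted p = 0.00267; 4.22 without Het 3). Slc39a10, another zinc importer, fell from 4.73 ± 1.17 to 1.86 ± 0.577 CPM (2.54-fold, adjusted p = 0.00791). Slc30a10 and Slc39a1, transporters of manganese and zinc, were the other lower members, at log2 -1.05 and -0.33, and both lost their call when Het 2, Het 3, Het 4, KO_drug 1, KO_drug 2 or KO_drug 4 was left out.

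**Figure D2:**
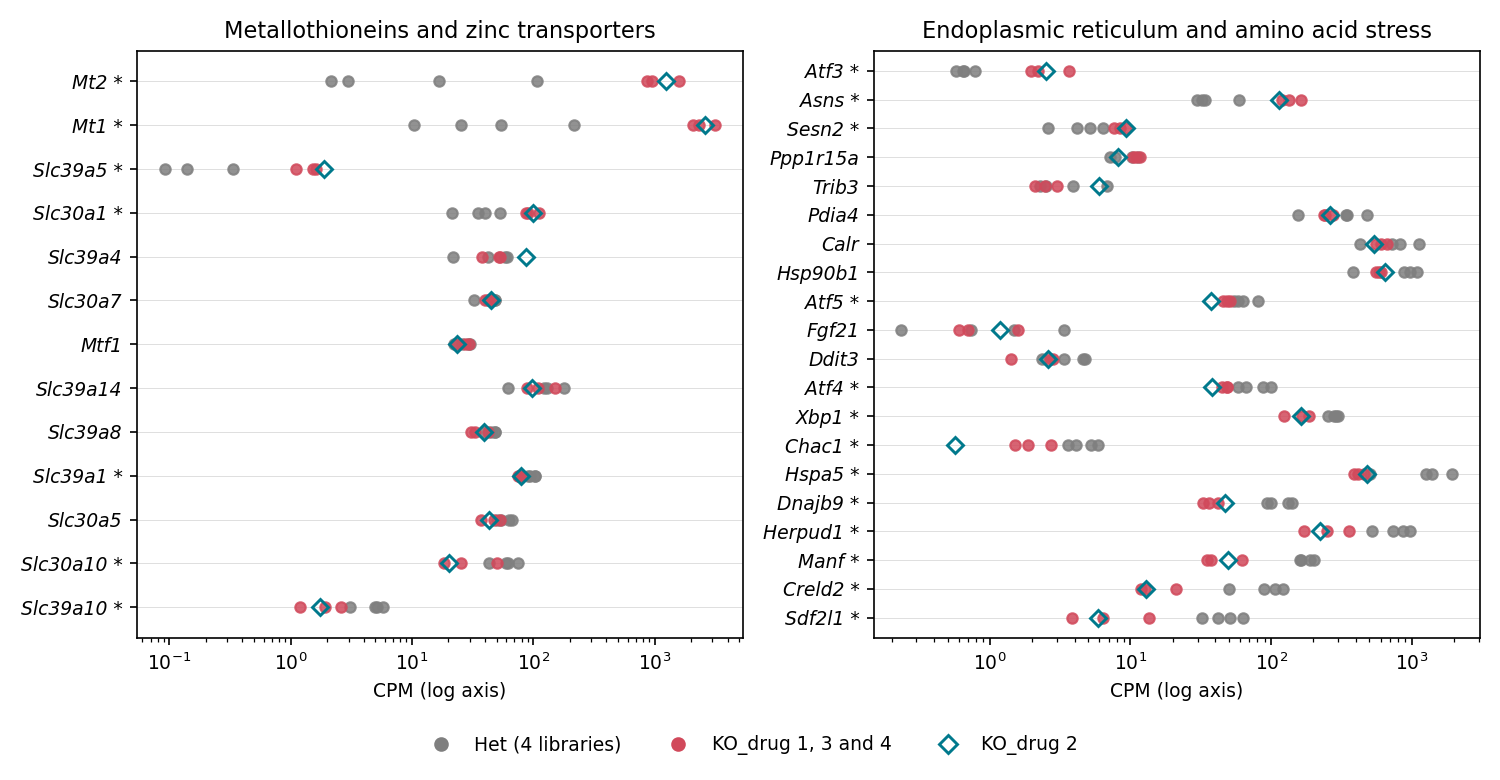
CPM of each library on a log axis for the tested metallothionein and zinc transporter genes (left) and the tested genes of endoplasmic reticulum and amino acid stress (right). Grey circles are the 4 Het libraries, red circles KO_drug 1, 3 and 4, blue diamonds KO_drug 2, and an asterisk marks a called gene; a library at 0 is not drawn (Slc39a5 in Het 2). Mt1 and Mt2 reached 869 to 3168 CPM in KO_drug against at most 218 in Het, while Creld2 and Sdf2l1 lay lower in every KO_drug library.

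Of 24 LXR target genes, 16 rose in KO_drug, against 12.8% of all genes; 0 were lower by edgeR and by DESeq2, and 1 at an unadjusted p under 0.05; the median log2 change was 1.28, beside 0.0040. For 12 of the 24 the groups did not overlap, against 14.2% of all genes in that direction. The 3 libraries KO_drug 1, 3 and 4 lay above every Het library for all 16 called members. KO_drug 2 did so for 11 of the 16 and fell within the Het range for the other 5. The mean log2 CPM over the list was 6.02 to 6.24 in Het and 7.89, 7.14, 7.86 and 7.84 in KO_drug 1 to 4.

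KO_drug 2 was low chiefly for the cholesterol transporters. Abcg5 and Abcg8, the subunits of the pump that sends cholesterol into bile, had 59.6 to 78.5 and 74.3 to 108 CPM in Het. Abcg5 reached 327, 374 and 362 CPM in KO_drug 1, 3 and 4 but 71.6 CPM in KO_drug 2, within the Het range. Abcg8 behaved alike, with 475, 539 and 495 CPM in those libraries and 106 CPM in KO_drug 2. Their log2 changes were 2.08 (SE 0.41, adjusted p = 0.00573) and 2.18 (SE 0.41, adjusted p = 0.00439), and without KO_drug 2 they were 2.40 (adjusted p = 9.2e-06) and 2.49 (adjusted p = 1.27e-05). The genes share a start region and their spans overlap. Srebf1, the master regulator of fatty acid synthesis, showed the same split, at 323, 472 and 513 CPM against 76.8 in KO_drug 2 and 54.1 to 97.4 in Het. Its log2 change of 2.1 (SE 0.47, adjusted p = 0.0105) rose to 2.43 (adjusted p = 0.000117) without KO_drug 2.

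Abca1, which loads cholesterol onto lipoprotein A-I, stood at 149, 245, 239 and 299.9 CPM in Het 1 to 4 and 551, 286, 554 and 718 in KO_drug 1 to 4 (log2 1.18, SE 0.29, adjusted p = 0.0156). Only KO_drug 2 overlapped Het. Abcg1, a cholesterol exporter to HDL, rose 3.72-fold from 12.4 ± 1.65 to 46.2 ± 23.4 CPM (adjusted p = 0.00231), and all 4 KO_drug libraries lay above Het, with KO_drug 2 lowest at 21.4. Rnf145, a ubiquitin ligase of sterol control, rose 3.13-fold, again with KO_drug 2 lowest at 22.7 CPM beside 51.0 to 80.6 in the others.

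For Scd1, Lpl and Cd36, unlike Srebf1, KO_drug 2 lay above every Het library. Scd1, the desaturase that makes oleate, stood at 2864, 2134, 5284 and 5193 CPM in Het and 54427, 51444, 69769 and 43605 in KO_drug, a 14.2-fold rise (log2 3.82, SE 0.37, adjusted p = 7.16e-05). It took up 0.3649 ± 0.1453% of all counts in Het and 5.781 ± 0.9073% in KO_drug. Lpl, the lipase that frees fatty acids from lipoproteins, had 13.2 to 30.3 CPM in Het and 462, 224, 377 and 264 in KO_drug (17-fold, adjusted p = 2.59e-05). Cd36, a fatty acid receptor, rose 9.28-fold from 31.7 ± 6.5 to 294 ± 59.9 CPM (adjusted p = 5.7e-06). For each of these 3 genes the groups did not overlap; KO_drug 2 lay within the range of the other KO_drug libraries for Scd1 and Cd36 and was the lowest for Lpl.

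Pnpla3, a lipase of the lipid droplet, was at 0.0925 to 0.639 CPM in Het and at 14.9, 4.01, 37.3 and 13.6 in KO_drug (log2 5.62, SE 0.73, adjusted p = 0.000436; 4.93 without KO_drug 3). Pltp, the phospholipid transfer protein, rose 4.05-fold and Fasn, the fatty acid synthase, 5.33-fold, both without overlap. Pltp overlaps Ctsa in the annotation. Lpcat3, which remodels phospholipids, rose 2.36-fold, Apoc2, a cofactor of Lpl, 2.49-fold, and Smpdl3a, a phosphodiesterase, 1.37-fold. Mlxipl, which encodes the sugar-sensing factor ChREBP, rose 1.88-fold (adjusted p = 0.0231) and was no longer called without Het 1, Het 2, KO_drug 3 or KO_drug 4 (adjusted p 0.0528 to 0.0678).

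The 8 other LXR targets did not pass the test, and 7 of them are described here. Nr1h3, which encodes LXR alpha itself, was at 98.8 ± 11.1 CPM in Het and 98.8 ± 6.78 in KO_drug (log2 -0.00035, SE 0.12). Cyp7a1, the rate-limiting enzyme of bile acid synthesis, varied from 26.5 to 147 CPM in Het and 71.6 to 214 in KO_drug (log2 0.84, SE 0.47, adjusted p = 0.241). Apoe and Apoc1, which encode neighbouring lipoprotein components, had log2 changes of 0.48 and 0.48 (adjusted p = 0.183 and 0.154). Apoe was called with total-count scaling (0.67, adjusted p = 0.0152) and with DESeq2 (0.47, adjusted p = 0.0464). Apoc1 was called without Het 1 (0.67, adjusted p = 0.0194) and by voom with sample weights (0.65, adjusted p = 0.0194). Mylip, which degrades the LDL receptor, changed by 0.42 (SE 0.32) and Arl4c, a small GTPase, by 0.59 (SE 0.27). Ttc39b was at log2 -0.50 (SE 0.20, adjusted p = 0.1) and was called lower without Het 3 (-0.63, adjusted p = 0.0475).

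**Figure D3:**
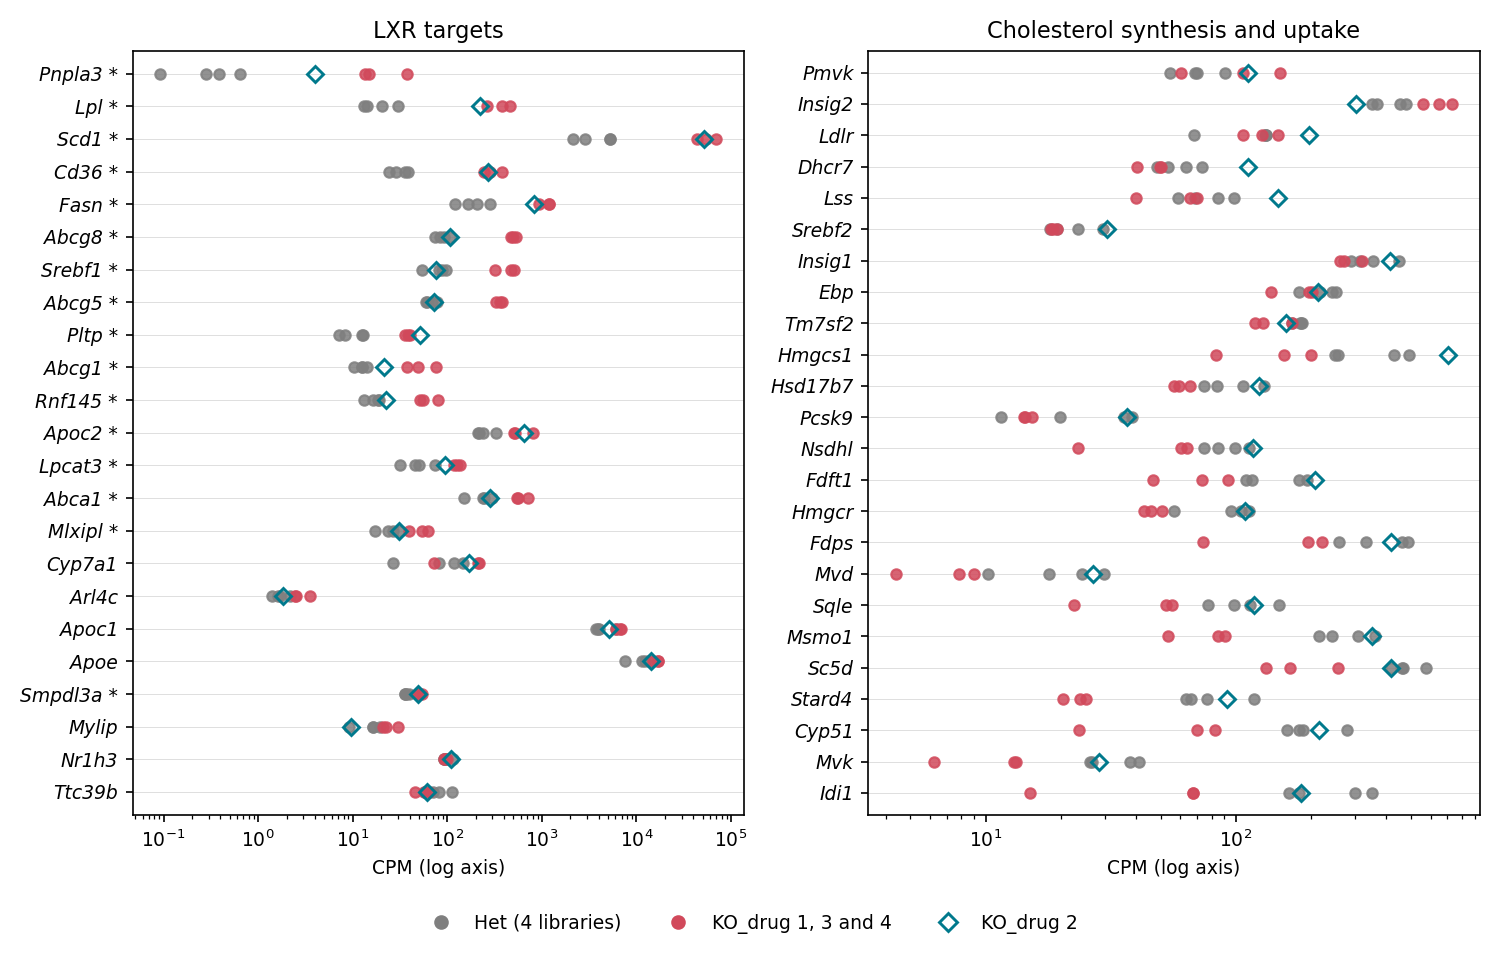
CPM of each library on a log axis for LXR targets (left) and genes of cholesterol synthesis and uptake (right) that are reported here, ordered by log2 change. Grey circles are Het, red circles KO_drug 1, 3 and 4, blue diamonds KO_drug 2, and an asterisk marks a called gene; KO_drug 2 lies within Het for Abcg5 and Abcg8, and above the other KO_drug libraries for cholesterol genes such as Hmgcs1, at 703 CPM.

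Fatty acid synthesis rose beyond the members shared with the LXR list. Of 22 tested members, 13 were higher and 1 lower (2 without KO_drug 3), beside 12.8% and 8.13% of all genes. The list's median log2 change was 1.10. Scd2, a desaturase that is typical of brain and fetal tissue, stood at 7.13 to 9.76 CPM in Het and at 315, 70.1, 201 and 108 in KO_drug, 21.3-fold higher (log2 4.41, SE 0.44, adjusted p = 8.26e-05). Elovl6, which lengthens palmitate, rose 4.11-fold from 58.7 ± 7.49 to 241 ± 53.1 CPM (adjusted p = 4.5e-05). Acaca, the acetyl-CoA carboxylase of the cytosol, rose 3.10-fold from 121 ± 29.1 to 376 ± 15.7 CPM. Elovl2, which lengthens polyunsaturated fatty acids, was the only member called lower, where DESeq2 called 2. Elovl2 went from 519 ± 119.8 to 283 ± 61.2 CPM (1.83-fold lower, adjusted p = 0.0139). Groups did not overlap for any of these 4 genes, which their choice by small p favours. Reads of Scd1 and Scd2 may be split between near-identical copies.

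Triglyceride assembly and the lipid droplet showed 12 of 23 tested members higher, beside 12.8% of all genes. The list's median log2 change was 0.76. Cidec, which fuses lipid droplets into large ones, went from 0.228, 0.564, 1.43 and 0.555 CPM in Het to 54.2, 74.0, 45.1 and 99.1 in KO_drug. That was a 97.8-fold rise (log2 6.61, SE 0.44, adjusted p = 6.87e-06; 7.23 without Het 3). Mogat1, which acylates monoacylglycerol, was at 0 CPM in Het 3 and Het 4, at 0.502 and 0.188 in Het 1 and Het 2, and at 29.6, 15.3, 7.69 and 14.9 in KO_drug (log2 6.55, SE 0.71, adjusted p = 0.000147; 7.95 without Het 1). Both genes were thus near silence in Het and clearly expressed in every KO_drug library. Tm6sf2, needed to load lipid onto secreted lipoproteins, rose 2.61-fold (adjusted p = 0.000425).

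Cholesterol synthesis and uptake behaved differently. Of 25 tested members 1 was called, as higher, and none without Het 3, Het 4 or KO_drug 1. The median log2 change of the list was -0.38. KO_drug 4 lay below all Het libraries for 19 of the 25 genes, KO_drug 1 for 16 and KO_drug 3 for 14, whereas KO_drug 2 did so for 2 and lay above all Het libraries for 9. Without KO_drug 2, 13 members were called lower and the median was -0.91. With all libraries, edgeR with the filter used here called 0 members lower (4 at an unadjusted p under 0.05) and with filterByExpr or 10 counts in all 8 libraries 1, against 7 by voom with sample weights and 2 by DESeq2.

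Several members, chosen after their values were seen, show the pattern. Hmgcs1, which starts the mevalonate pathway, had 430.1, 492, 250.04 and 256 CPM in Het 1 to 4 and 156, 703, 199.7 and 82.9 in KO_drug 1 to 4. Idi1, the isopentenyl isomerase, had 164 to 349.7 CPM in Het and 67.5, 183, 67.2 and 15.1 in KO_drug. In both genes KO_drug 2 was the highest of its group and the other 3 lay below all Het libraries. The log2 changes were -0.32 (adjusted p = 0.74) and -1.58 (adjusted p = 0.0812), and -1.29 (adjusted p = 0.0264) and -2.31 (adjusted p = 0.0106) without KO_drug 2. Stard4, a sterol carrier, went from -1.0 (adjusted p = 0.153) to -1.81 (adjusted p = 0.000547), and Sqle, the squalene epoxidase, from -0.81 (adjusted p = 0.189) to -1.33 (adjusted p = 0.0172). Among the 4 KO_drug libraries, KO_drug 2 thus had the lowest Abca1, Abcg1, Abcg5 and Abcg8 and the highest Hmgcs1, Idi1, Stard4 and Sqle. Whether these features are linked was not tested.

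Of 23 bile acid genes 3 were higher, a share near the 12.8% of all genes, and 6 lower, against 8.13%; 4 were lower with total-count scaling. The median log2 change was -0.19, and -0.0011 with total-count scaling. Slco1a1, an uptake carrier of organic anions that is typical of male liver, had 683, 939, 961 and 800.1 CPM in Het and 29.0, 284, 167 and 126 in KO_drug (5.59-fold lower, adjusted p = 0.00744). Cyp7b1, the oxysterol hydroxylase of the alternative pathway, fell 3.05-fold (adjusted p = 0.00921) and Slc10a1, which takes up bile acids from blood, 2.42-fold (adjusted p = 0.0144). Baat, which joins bile acids to taurine or glycine, fell 1.97-fold. In the other direction, Abcc4, a bile acid exporter toward blood, rose from 2.94 ± 0.423 to 22.7 ± 9.53 CPM (7.72-fold, adjusted p = 0.000137), and Acox2, a peroxisomal oxidase of bile acid side chains, 1.99-fold. None of these 6 genes overlapped between the groups, which their choice by small p favours. KO_drug 2 had the smallest change of the 4 libraries in Slco1a1, Cyp7b1, Slc10a1, Abcc4 and Acox2.

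PPAR alpha targets and fatty acid oxidation had 8 of 27 members higher, beside 12.8% of all genes. The list's median log2 change was 0.23. Ehhadh, a peroxisomal enzyme of fatty acid oxidation, stood at 120.0, 193, 300.4 and 196 CPM in Het and at 2611, 1213, 3075 and 2557 in KO_drug (11.7-fold, adjusted p = 8.98e-05). Vnn1, a pantetheinase, rose 7.81-fold and Pdk4, which holds back pyruvate oxidation, 5.03-fold. Acaa1b, a peroxisomal thiolase whose span overlaps Dlec1, rose 3.03-fold from 523 ± 140.4 to 1587 ± 275 CPM. All 4 separated the groups, but they were named for their small p, which favours such genes.

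Other metabolic lists were read beside the 12.8% of all genes called higher and the 8.13% called lower. In glycolysis and gluconeogenesis 3 of 26 were higher and 1 lower (0 lower without KO_drug 4), against 7 and 1 with total-count scaling and 6 and 4 with DESeq2. Pgd, an enzyme of the pentose phosphate pathway, rose 2.30-fold. Leaving out 1 library gave 1 higher member without Het 1, Het 2 or KO_drug 3, and 2 to 4 lower ones without Het 1, KO_drug 1, KO_drug 2 or KO_drug 3. The urea cycle and amino acid list had 1 of 25 higher and 3 lower, a split that became 6 and 2 with total-count scaling and 0 and 0 without Het 2. Its lower members numbered 0 without Het 3 and 1 without KO_drug 1 or KO_drug 4, and it had 3 higher members without KO_drug 2. In the methionine cycle 3 of 16 were higher and 3 lower, 4 and 0 with total-count scaling, and 3 and 0 without KO_drug 1 or KO_drug 4. There Nnmt, which uses up methyl groups on nicotinamide, rose from 7.77, 13.2, 14.9 and 23.9 to 145, 31.8, 62.9 and 125 CPM (6.10-fold, adjusted p = 0.00333). Mat2a, the methionine adenosyltransferase of dividing and non-hepatic cells, rose 1.77-fold (adjusted p = 0.0083); it overlaps Ggcx and Particl.

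Mitotic genes were the list with the largest median change. All 28 members were tested and 22 were higher in KO_drug, beside 12.8% of all genes. The list's median log2 change was 3.60. For 22 of the 28 all KO_drug libraries lay above all Het libraries, against 14.2% of all genes. These were the 22 called higher, and a call favours genes that separate the groups. When 10 counts were required in all 8 libraries, 10 members were tested and 7 called higher, since most of the list is nearly silent in Het. Averaged over the list, log2 CPM was -1.07 to 0.03 in Het and 3.41, 2.14, 2.16 and 2.49 in KO_drug 1 to 4, so that KO_drug 1 was the highest.

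Genes of late cell cycle are known to be held back in resting cells by the DREAM complex, which contacts a CHR element (TTTGAA) often next to CCAAT boxes. The windows of Cdc20 and Aurka are shown because both are mitotic genes with a strong rise. They lie at chr4:118437294-118437593 and chr2:172370521-172370820 of GRCm38.p6, both on the minus strand, and are credited to RefSeq. Capitals mark TTTGAA and CCAAT on either strand; no 2 of the marked matches overlap.

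Cdc20: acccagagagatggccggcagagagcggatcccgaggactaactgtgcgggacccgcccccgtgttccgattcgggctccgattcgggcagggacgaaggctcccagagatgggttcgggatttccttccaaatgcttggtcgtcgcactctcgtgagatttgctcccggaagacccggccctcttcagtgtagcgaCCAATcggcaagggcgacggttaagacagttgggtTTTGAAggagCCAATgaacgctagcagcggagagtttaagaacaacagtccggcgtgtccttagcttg

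Aurka: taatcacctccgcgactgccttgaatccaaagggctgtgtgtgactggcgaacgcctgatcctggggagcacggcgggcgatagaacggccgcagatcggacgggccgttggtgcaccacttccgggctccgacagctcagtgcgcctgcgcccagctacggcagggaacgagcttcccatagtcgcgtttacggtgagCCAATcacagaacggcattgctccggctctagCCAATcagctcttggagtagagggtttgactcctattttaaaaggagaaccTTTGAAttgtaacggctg

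TTTGAA lay at -18 to -13 from the Cdc20 start and at 33 to 38 from the Aurka start, and each window held 2 CCAAT boxes. Of the 23 tested mitosis genes with a window, 17 held TTTGAA (73.9%) and 19 held CCAAT (82.6%). Over all 32851 windows the shares were 17.9% and 37.4%, and over the 9703 windows of tested genes 12.1% and 39%. Of 18 tested replication genes 2 held TTTGAA and 12 held CCAAT. These are counts of letters in a window and show no factor at work.

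Cdc20, which activates the anaphase-promoting complex, stood at 0.548, 0.94, 0.287 and 0.555 CPM in Het and at 24.3, 16.1, 16.5 and 14.6 in KO_drug (30.4-fold, log2 4.93, SE 0.31, adjusted p = 5.33e-06). Aurka, a kinase of the spindle pole, had 0.908 to 1.20 CPM in Het and 7.22 to 9.85 in KO_drug (8.16-fold, adjusted p = 5.96e-06). Their spans overlap those of Elovl1 and Cstf1. Cdca8, of the chromosomal passenger complex, rose 12.2-fold and Ect2, which drives cytokinesis, 23.4-fold from 1.13 ± 0.284 to 26.6 ± 13 CPM, with KO_drug 1 highest at 46.1. Outside the list, 5 more genes of chromosome segregation or the damage response were among the calls with the smallest p. Mad2l1, of the spindle checkpoint, rose 23.5-fold, Spc25, of the kinetochore, 18.9-fold, Zwilch, also of the kinetochore, 29.7-fold and Kif20b, a mitotic kinesin, 39.7-fold, each with adjusted p = 6.24e-07. Ddias, which guards dividing cells against apoptosis after DNA damage, had 0.462 to 1.03 CPM in Het and 51.5, 43.2, 47.9 and 51.1 in KO_drug (68.6-fold, adjusted p = 2.31e-07).

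Not every proliferation marker followed. Mki67, chosen after its values were seen, had 1.05 to 4.51 CPM in Het and 19.6, 3.11, 1.61 and 3.27 in KO_drug, so that only KO_drug 1 stood above Het. Its log2 change was 1.52 (SE 0.74, adjusted p = 0.18), and 0.15 without KO_drug 1. Pttg1, which encodes securin and was also picked afterwards, was at 18.3 ± 2.85 and 20.5 ± 1.95 CPM. Genes of DNA replication and the G1/S step moved less than mitotic genes, with 5 of 24 tested members higher, beside 12.8% of all genes. The list's median log2 change was 0.47. KO_drug 1 lay above all Het libraries for 19 of the 24, KO_drug 2 for 12, KO_drug 3 for 6 and KO_drug 4 for 7. Without KO_drug 1, 4 members were called higher and 3 lower, and the median was 0.00074. Mcm6, a subunit of the replicative helicase chosen after its values were seen, had 8.12 CPM in KO_drug 1 and 0.502 to 1.65 in the other 7 libraries. The called members included Tk1, a thymidine kinase, from 13.4 ± 0.86 to 24.9 ± 1.72 CPM (1.85-fold, adjusted p = 0.000313), and E2f2, a factor of S-phase entry, at 1.00 to 1.83 CPM in Het and 12.1, 2.55, 5.12 and 4.91 in KO_drug (4.01-fold, adjusted p = 0.00923). Ccnd1, which encodes cyclin D1, rose 2.35-fold and Rrm1, of ribonucleotide reductase, 1.90-fold. All 4 genes separated the groups, which their choice by small p favours. Tk1 overlaps Afmid and Ccnd1 overlaps Oraov1.

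Targets of p53, the factor that answers DNA damage by arrest or death, had 15 of 19 tested members higher, beside 12.8% of all genes. The list's median log2 change was 1.27. For 15 of the 19 all KO_drug libraries lay above all Het libraries, against 14.2% of all genes, and these were the 15 called higher. Eda2r, a receptor of the TNF family, stood at 0.502, 0.611, 0.621 and 0.601 CPM in Het and 29.2, 15.8, 32.1 and 25.7 in KO_drug (43.6-fold, log2 5.45, SE 0.26, adjusted p = 8.67e-07). Gtse1, a p53 inhibitor of the G2 and S phases, rose 50.4-fold from 0.257 ± 0.19 to 13.2 ± 3.47 CPM. Phlda3, an inhibitor of AKT, rose 21.4-fold, with KO_drug 2 lowest at 3.02 CPM beside 7.08 to 7.89. Ccng1, which encodes cyclin G1, rose 3.51-fold from 55.8 ± 13.8 to 196 ± 32.1 CPM. Mdm2, the ligase that limits p53 and a gene picked after its values were seen, rose by log2 0.82 (SE 0.15). Cdkn1a, chosen after its values were seen and the best known p53 target of cell cycle arrest, had 2.24, 5.69, 19.2 and 15.7 CPM in Het and 41.6, 5.80, 74.4 and 38.4 in KO_drug. KO_drug 2 lay within Het, and the log2 change of 1.90 (SE 0.73) had an adjusted p of 0.0926, and of 0.0213 (log2 2.26) without KO_drug 2.

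**Figure D4:**
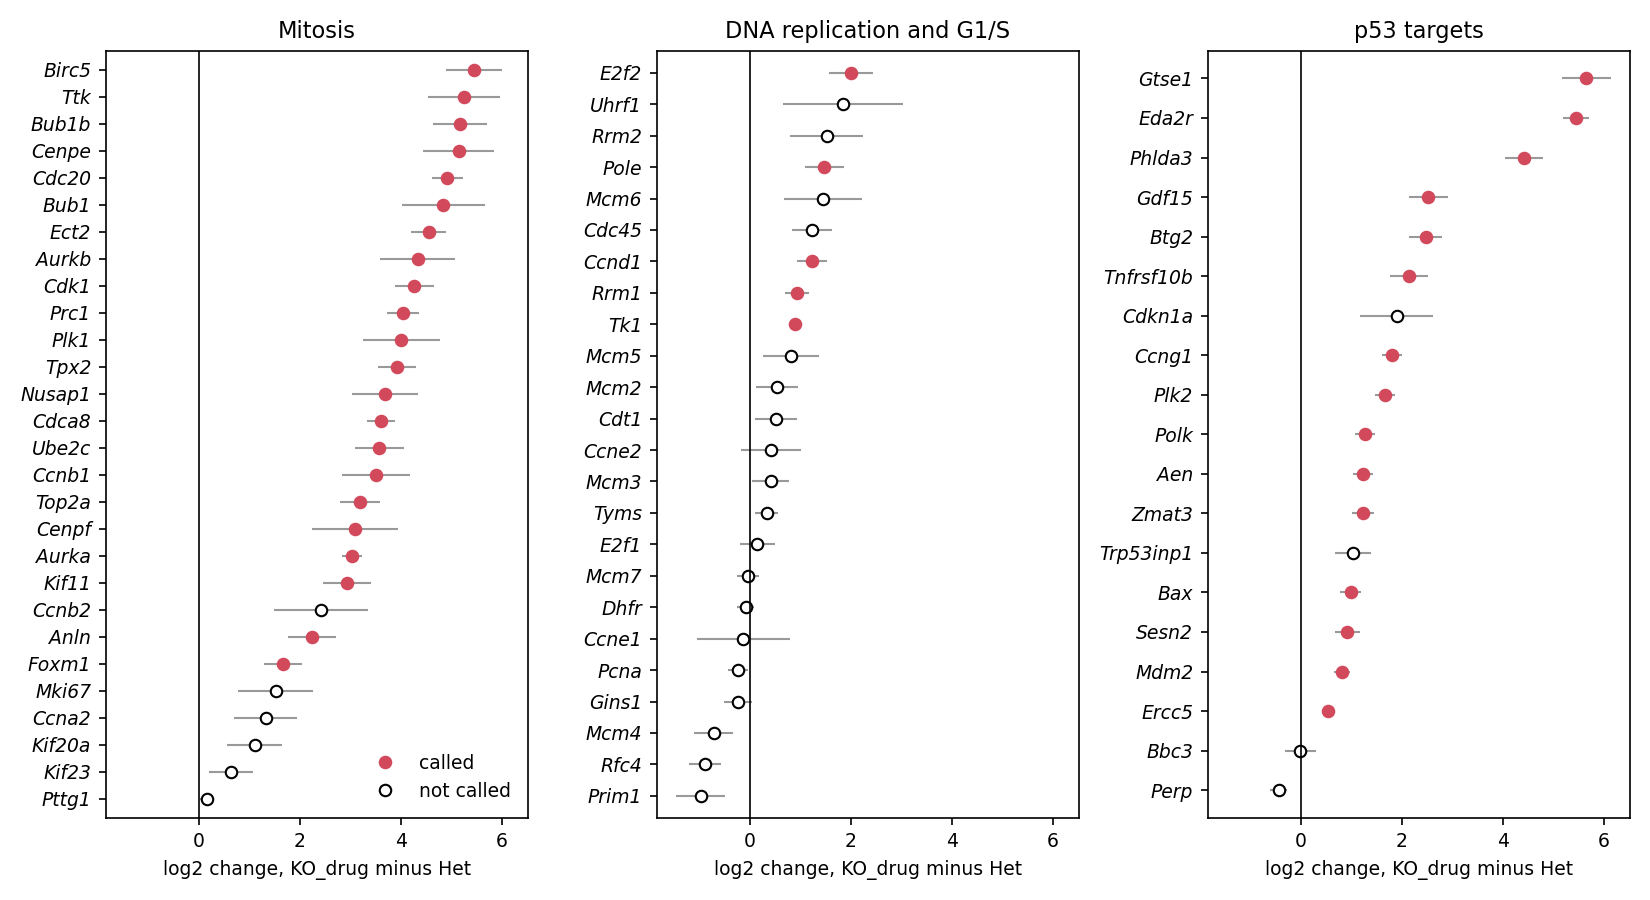
Log2 change of KO_drug over Het with its SE (bars) for the tested mitosis, DNA replication and p53 target genes. Filled red points are called and open points are not; 22 of 28 mitosis genes and 15 of 19 p53 targets were called, against 5 of 24 replication genes.

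Targets of NRF2, the factor that answers oxidants and electrophiles, were higher for 12 of 22 tested members and lower for 1. Over all genes the shares were 12.8% and 8.13%, and the list's median log2 change was 0.89. Gsta1, a glutathione transferase, stood at 2.83, 2.44, 4.49 and 2.91 CPM in Het and 143, 61.1, 111 and 81.1 in KO_drug (31.2-fold, adjusted p = 5.25e-06). Gstm3, another, rose 14.7-fold from 52.1 ± 14.7 to 765 ± 392 CPM, with KO_drug 1 highest at 1337. Srxn1, which repairs peroxiredoxins, rose 2.63-fold from 31.1 ± 4.97 to 82 ± 17.3 CPM. Groups did not overlap for these 3 genes, which their choice by small p favours. The lower member, Gclc of glutathione synthesis, had a log2 change of -0.77 and lost its call with total-count scaling or without Het 1, Het 2, Het 3, KO_drug 1 or KO_drug 4. The list shares Abcc4, G6pdx and Me1 with the lists above.

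Cytochrome P450 genes of drug and steroid metabolism were higher for 7 and lower for 5 of 27, beside 12.8% and 8.13% of all genes. Cyp2a4, a steroid hydroxylase that is more abundant in female mouse liver, stood at 47.2, 14.9, 28.7 and 26.2 CPM in Het and at 1448, 1250, 1535 and 1450 in KO_drug. The rise was 48.6-fold (log2 5.60, SE 0.35, adjusted p = 5.25e-06). Its near neighbour Cyp2a5, the coumarin hydroxylase, rose 17.2-fold from 139 ± 95.5 to 2391 ± 507 CPM (log2 4.10, and 4.71 without Het 3). Cyp2c55 rose 29.6-fold and Cyp2c39 2.29-fold, whereas Cyp2c54 fell 2.51-fold (348 ± 44.4 to 139 ± 45.7 CPM) and Cyp2c37 2.14-fold, all without overlap. Values of single members of the Cyp2a, Cyp2c, Gst and Mup families are uncertain, since reads of near-identical copies may be split. The number of lower P450 genes was 2 without Het 2, KO_drug 1 or KO_drug 4, and 3 without Het 3, Het 4 or KO_drug 3 or with total-count scaling.

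Conjugating enzymes were higher for 2 and lower for 6 of 24, beside 12.8% and 8.13% of all genes. The list's median log2 change was -0.27. Sult2a8, a sulfotransferase of bile acids, fell 2.53-fold from 894 ± 235 to 353 ± 118 CPM (adjusted p = 0.00793) and Gstp1, the pi-class glutathione transferase, 1.97-fold (adjusted p = 0.0151). Ces2a, a carboxylesterase, rose 2.85-fold from 467 ± 146 to 1332 ± 187 CPM, and Fmo5, a monooxygenase that overlaps Chd1l, 1.93-fold. The lower members numbered 3 when Het 2, Het 3, KO_drug 1, KO_drug 3 or KO_drug 4 was left out, and 10 with voom.

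Several chaperone genes of the endoplasmic reticulum were lower in KO_drug. Of 20 tested genes of endoplasmic reticulum and amino acid stress, 10 fell and 3 rose, beside 8.13% and 12.8% of all genes. The list's median log2 change was -0.59. For 10 of the 20 tested members all KO_drug libraries lay below all Het libraries, against 10.8% of all genes. These were the 10 called lower, and a call favours genes that separate the groups. The unfolded protein response is known to act on chaperone genes through the endoplasmic reticulum stress response element, in which CCAAT and CCACG stand 9 bases apart, and the Creld2 window is shown because it holds a match and Creld2 had one of the largest falls of the list. It lies at chr15:88819396-88819695 of GRCm38.p6 on the plus strand, and capitals mark the match, which reads on the other strand from -126 to -108.

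Creld2: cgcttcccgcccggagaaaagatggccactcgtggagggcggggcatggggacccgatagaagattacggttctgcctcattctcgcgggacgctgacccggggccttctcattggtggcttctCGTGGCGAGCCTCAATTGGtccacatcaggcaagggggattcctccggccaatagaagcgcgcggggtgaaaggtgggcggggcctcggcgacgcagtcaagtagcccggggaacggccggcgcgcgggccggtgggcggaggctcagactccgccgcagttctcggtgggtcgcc

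Searched on both strands, the element was in 0.119% of the 32851 windows and in 0.206% of the 9703 windows of tested genes. Among the 9 fallen members with a window, those of Creld2 and Hspa5 held it. Creld2, a chaperone for disulfide-rich proteins, had 50.5, 121, 89.3 and 107 CPM in Het and 12.6, 12.9, 11.9 and 20.9 in KO_drug, 6.30-fold lower (log2 -2.66, SE 0.28, adjusted p = 0.00013). Sdf2l1, a partner of BiP, fell 6.32-fold from 47.1 ± 13 to 7.42 ± 4.24 CPM. Manf, a secreted stress-induced factor, fell 3.86-fold from 178 ± 19.8 to 46 ± 12.7 CPM and Dnajb9, a cochaperone, 2.96-fold. Hspa5, which encodes the chaperone BiP and was chosen after its values were seen, had 502, 1940, 1386 and 1262 CPM in Het and 392 to 479 in KO_drug (2.91-fold lower, adjusted p = 0.00855). Xbp1, the factor of the pathway and likewise picked afterwards, fell 1.75-fold (adjusted p = 0.00391). The members that rose belong to the amino acid and stress kinase branch: Asns, the asparagine synthetase, rose 3.43-fold from 38.6 ± 13.5 to 133 ± 22.3 CPM, Atf3, a stress transcription factor, 3.86-fold, and Sesn2, also a p53 target, by log2 0.92 (not called without Het 3, KO_drug 3 or KO_drug 4). Atf4, the factor known to drive Asns, fell by 0.80 on the log2 scale, and was not called with total-count scaling (-0.65, adjusted p = 0.0572).

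Major urinary proteins, pheromone carriers secreted by male mouse liver, made up 11.71 ± 1.796% of the counts in Het and 3.253 ± 1.034% in KO_drug. Of 21 tested members, 15 were lower and 2 higher, beside 8.13% and 12.8% of all genes. The list's median log2 change was -1.72. Mup1 had 14835, 24551, 20707 and 17977 CPM in Het and 2574, 6046, 4067 and 4701 in KO_drug (4.49-fold lower, log2 -2.17, SE 0.30, adjusted p = 0.00066). Mup7 fell 5.91-fold and Mup3 7.44-fold, from 7089 ± 952 to 953 ± 447 CPM. Mup18 went the other way, from 33.1 ± 14.5 to 183 ± 29.5 CPM (5.52-fold higher), as did Mup19 at log2 1.60, whose call was lost without Het 1, Het 2, Het 3, KO_drug 1 or KO_drug 4. All KO_drug libraries lay below Het for Mup1, Mup7 and Mup3 and above it for Mup18.

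The growth hormone and IGF axis, which is known to drive these genes in male liver, was lower for 8 of 17 members. Over all genes 8.13% were lower, and the list's median log2 change was -0.80. Igf1, the growth factor that liver secretes under growth hormone, had 859, 631, 637 and 690.3 CPM in Het and 260.0, 470.1, 237 and 266 in KO_drug (2.29-fold lower, adjusted p = 0.00517). Egfr, the receptor of epidermal growth factor, fell 3.75-fold, from 487 to 1410 CPM in Het to 155 to 368 in KO_drug. Stat5b, which carries the growth hormone signal to the nucleus, fell 1.63-fold and Igfbp4, an IGF binding protein, 1.82-fold. Groups did not overlap for these 4 genes, which their choice by small p favours. Without KO_drug 4, 5 members were lower.

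Of 14 male-biased liver genes, 7 were lower and 1 higher, and of 7 tested female-biased genes 3 were higher. Over all genes, 8.13% were lower and 12.8% higher. The lower male-biased genes shared Slco1a1, Cyp7b1 and C8b with other lists, and Serpina3k, a protease inhibitor, fell 3.23-fold from 9956 ± 3535 to 3084 ± 861 CPM. Cyp4a12b, a fatty acid hydroxylase, was the male-biased gene that rose, 3.24-fold. Acot3, a peroxisomal thioesterase, rose 4.37-fold beside Cyp2a4 and Cyp3a44 (log2 1.03, not called without Het 4 or KO_drug 3). The male-biased list had 4 lower members without Het 2 or without KO_drug 4. The 4 Y-linked genes of the check list all passed the filter, 0 were called by edgeR (2 were higher at an unadjusted p under 0.05), and Xist did not pass it. Averaged over these 4 genes, log2 CPM was 4.752 to 5.084 in Het and 5.054 to 5.323 in KO_drug. All 8 libraries thus held Y-linked RNA, as male liver does.

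**Figure D5:**
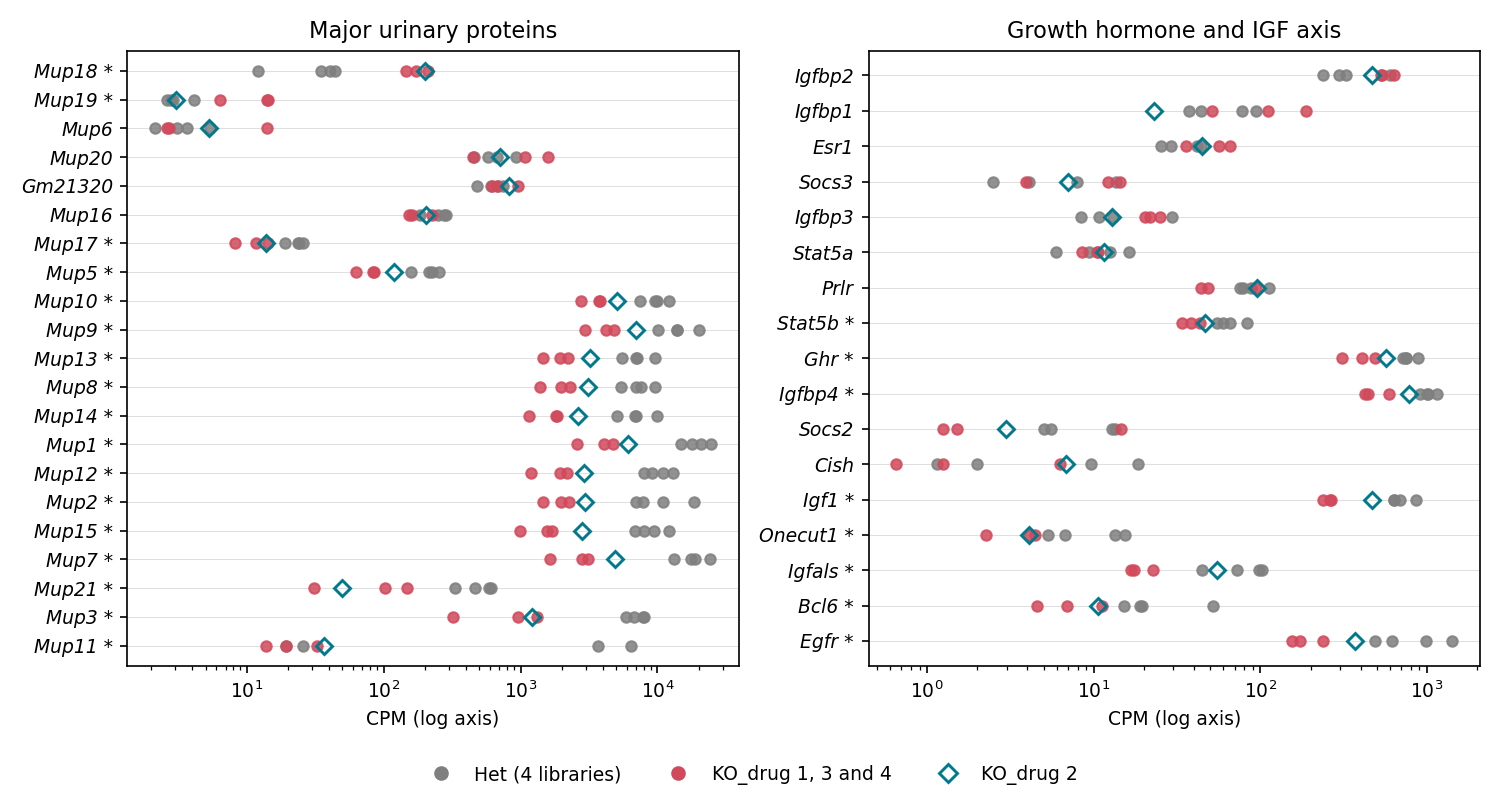
CPM of each library on a log axis for the 21 tested major urinary proteins (left) and the 17 genes of the growth hormone and IGF axis (right), ordered by log2 change. Grey circles are Het, red circles KO_drug 1, 3 and 4, blue diamonds KO_drug 2, and an asterisk marks a called gene; 15 urinary protein genes and 8 axis genes were lower in KO_drug.

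Of 28 hepatocyte identity genes 7 were lower, against 8.13% of all genes, and 21 were not called. The median log2 change was -0.35, and -0.19 with total-count scaling; limma on log2(FPKM + 0.1) called 4 lower. Hnf4a, the central hepatocyte transcription factor, went from 754 ± 74.4 to 442 ± 58 CPM (1.71-fold lower, adjusted p = 0.00594) and overlaps Hnf4aos. Foxa3, a forkhead factor, fell 2.02-fold and Rbp4, the plasma carrier of retinol, 2.08-fold from 1090 ± 68.5 to 524 ± 109.9 CPM. The groups did not overlap for these 3 genes, which their choice by small p favours.

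Genes that mark the zones of the liver lobule were read as a pericentral and a periportal list. Of 20 pericentral genes 3 were higher and 3 lower, against 12.8% and 8.13% of all genes. Avpr1a, a vasopressin receptor, fell from 24.7, 46.3, 45.1 and 37.8 to 9.97, 6.18, 9.70 and 5.63 CPM (4.89-fold, adjusted p = 0.000154), Gulo, of vitamin C synthesis, fell 1.75-fold, and Slc1a4, an amino acid carrier, rose 3.76-fold (adjusted p = 0.0115). Of 16 periportal genes 5 were lower, against 8.13% of all genes. Among them were Etnppl, a phosphoethanolamine lyase (3.61-fold), and Pigr, the receptor that carries immunoglobulin A into bile (2.39-fold). The periportal count was 2 without Het 2 or Het 3 and 3 without KO_drug 4.

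Secreted proteins of the acute phase showed 4 of 27 members higher and 4 lower, beside 12.8% and 8.13% of all genes. Hamp2, a hepcidin copy, rose from 6.90, 3.15, 5.49 and 2.45 to 85.1, 119, 309 and 131 CPM (35.8-fold, log2 5.16, SE 0.49, adjusted p = 5.99e-05). Il1rn, the interleukin-1 receptor antagonist, rose 2.75-fold, and Serpina3m, a protease inhibitor, fell 2.78-fold. Among 24 tested complement and coagulation genes 1 was higher and 5 lower. C8a and C8b, of the membrane attack complex, fell 2.49-fold and 3.28-fold. The mannose-binding lectins parted: Mbl1 fell 1.94-fold from 221 ± 12.3 to 114 ± 32 CPM and Mbl2 rose 2.19-fold from 173 ± 13.5 to 379 ± 104. Het 1 was the lowest Het library for Serpina3m, C8a and C8b. Without it, 10 acute phase and 11 complement genes were lower. The acute phase list had 2 higher members without Het 1, Het 2, Het 3 or KO_drug 1, and the complement list 3 lower ones without Het 2, Het 4, KO_drug 3 or KO_drug 4.

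Of 18 iron genes 2 were higher and 1 lower, shares near the 12.8% and 8.13% of all genes. Besides Hamp2, Tfrc, the transferrin receptor, rose, from 16.6, 18.3, 16.8 and 23.1 CPM in Het to 205, 75.9, 24.4 and 70.5 in KO_drug (5.02-fold, log2 2.33, SE 0.50, adjusted p = 0.00887). The KO_drug libraries were spread over a wide range with KO_drug 1 highest and KO_drug 3 just above Het; without KO_drug 1 the log2 change was 1.61. Slc40a1, the iron exporter ferroportin, had a log2 change of -0.61 and was not called with total-count scaling or without Het 2, Het 4, KO_drug 1, KO_drug 3 or KO_drug 4.

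Markers of blood-borne and other liver cells were read both as genes and as a check of what the tissue held. Macrophage and Kupffer cell markers were higher for 5 of 25 tested members, beside 12.8% of all genes. Their summed level was 591.38 to 823.96 CPM in Het and 1699.6, 776.01, 855.59 and 1118 in KO_drug 1 to 4. KO_drug 1 lay above all Het libraries for 21 of the 25 and KO_drug 2 for 4. Mpeg1, a pore-forming protein of phagocytes, had 37.4, 48.2, 36.9 and 70.3 CPM in Het and 333, 108, 211 and 196 in KO_drug (4.40-fold, adjusted p = 0.0013), without overlap. The other 4 were Cd14, Lgals3, Cd5l and Cd9, at log2 1.77, 1.16, 0.98 and 0.72. Each of these 4 lost its call without Het 2, without Het 3 and without KO_drug 1, which left 1 called; the count was 2 without Het 1 and 3 without Het 4 or KO_drug 4. The part of these cells in other changes was not tested.

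Neutrophil markers were mostly under the filter, with 5 of 13 tested, and S100a8, which encodes part of calprotectin, was the 1 called: 0.287 to 1.80 CPM in Het and 17.9, 9.58, 6.63 and 7.70 in KO_drug (9.93-fold, adjusted p = 0.000789). A further marker was called when Het 4 was left out. Of 18 T and NK cell markers 3 were tested and 0 called by edgeR, at the adjusted or the unadjusted threshold, or by DESeq2, and Cd3d, Cd3e, Cd3g and Cd8a were under the filter. B and plasma cell markers had 2 tested members, of which Jchain, the joining chain of immunoglobulins, fell 3.38-fold. Antigen presentation had 1 of 15 tested members higher and 4 lower, beside 12.8% and 8.13% of all genes. H2-Aa and H2-Eb1, which encode MHC class II chains, fell 1.88-fold and 1.92-fold, and the list had 2 lower members with total-count scaling. The higher member, Tap1 of peptide loading (log2 0.97), lost its call without Het 1, Het 3, Het 4, KO_drug 1, KO_drug 2 or KO_drug 4. Interferon-stimulated genes had 4 of 24 higher, a share near the 12.8% of all genes, and 2 higher without Het 3, Het 4 or KO_drug 4. The called members included Bst2, which tethers viruses to the cell, at 29.5 ± 5.33 and 88.6 ± 15.1 CPM (3.00-fold, adjusted p = 0.000145 by edgeR). Usp18, which damps interferon signals, was also called (2.68-fold). Among 16 tested cytokine and adhesion genes the chemokine Ccl6 was the 1 called (2.12-fold higher).

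Ductular markers were higher for 4 of 14 tested members, beside 12.8% of all genes. Krt23, a keratin of stressed hepatocytes and ducts, rose from 0.502, 0.611, 0.86 and 0.509 to 15.2, 13.3, 14.5 and 13.8 CPM (22.7-fold, adjusted p = 6.24e-07), in a narrow range in both groups. Krt8, a keratin that hepatocytes also make, rose 2.60-fold and Pkhd1, of the primary cilium, 1.97-fold; Krt18, the partner of Krt8, was the fourth, at log2 0.80, and lost its call without Het 1, Het 2, Het 4, KO_drug 1, KO_drug 2 or KO_drug 3. The duct markers Krt19 and Epcam, looked up after the result was seen, were at 0.462 to 1.55 and 0.43 to 0.639 CPM in Het and at 0.301 to 0.566 and 0 to 1.16 CPM in KO_drug, and neither was called. The matrix and stellate list had 2 of 31 members lower, Ngfr and Timp2 (log2 -1.06 and -0.62), beside 8.13% of all genes. It had 1 lower member without Het 2, Het 3, Het 4, KO_drug 3 or KO_drug 4, none without KO_drug 1, and 2 higher members in place of the lower ones with total-count scaling. Cela1, a pancreatic type elastase, was the 1 of 2 tested markers of other tissues that was called, 2.39-fold lower.

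The largest rises were of genes that had no count in Het. Of the tested genes, 43 were at 0 in all 4 Het libraries and 1 was at 0 in all 4 KO_drug libraries. A gene at 0 in Het passed the filter only if all 4 KO_drug libraries had 10 or more counts. A rise of such genes was thus largely set by the filter. Of 151 tested genes with 10 or more counts in all KO_drug libraries and in no Het library, 147 were called higher. In the other direction, 21 of 29 were called lower. Got1l1, a relative of an aspartate transaminase, reached 26.1, 9.01, 32.7 and 33.9 CPM in KO_drug, which is at least 722-fold higher against a floor of 3 counts over the 4 Het libraries. Slc35f2, a membrane carrier, had 32.0, 13.8, 17.3 and 21.2 CPM (at least 605.3-fold) and Mgst2, a microsomal glutathione transferase, 20.2, 8.96, 13.0 and 14.1 (at least 403.2-fold). KO_drug 2 was the lowest of the 4 in each of these 3 genes. Syt14, a synaptotagmin, had 5.38 to 10.6 CPM (at least 214.1-fold). Others rested largely on KO_drug 1. Wfdc12, a whey acidic protein relative, had 84.7 CPM there and 2.78 to 6.4 in the other KO_drug libraries, Tex19.1, a germline gene, 35.2 and 5.02 to 7.32, Spink1, a trypsin inhibitor, 16.0 and 2.46 to 3.02, and Slc15a1, a peptide carrier, 12.5 and 3.66 to 4.92.

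Among rises from a measurable level, Treh, which splits trehalose, went from 0.685, 1.18, 0.955 and 1.11 to 46.9, 40.8, 37.3 and 40.2 CPM (41.9-fold, SE 0.18, adjusted p = 2.22e-07). Abcb1b, a multidrug exporter, rose 5.90-fold from 12.4 ± 0.92 to 73.4 ± 2.1 CPM (adjusted p = 5.17e-07). Both had a spread within groups that was small beside the change, but they were named for their small p, which favours such genes.

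Falls were smaller, and 28 genes fell at least 8-fold. Tcf24, a helix-loop-helix factor, had 17.5, 6.39, 4.59 and 3.47 CPM in Het and was at 0 in KO_drug apart from 0.236 in KO_drug 2 (log2 -6.93, SE 0.89, adjusted p = 0.000417). Ccr3, the eotaxin receptor, had 1.86 to 2.73 CPM in Het and only KO_drug 2 above 0, at 0.189 CPM (log2 -5.40, SE 0.71). Without KO_drug 2 these would have no count in KO_drug, so that the size of both falls rests on that library. Enho, which encodes the secreted peptide adropin, fell 11.6-fold from 52.8 ± 10.6 to 4.56 ± 1.95 CPM (adjusted p = 2.97e-05), and Cadm4, an adhesion molecule, 16.3-fold from 7.77 ± 1.36 to 0.477 ± 0.39. Enho overlaps Dnaic1. Susd4, a complement regulator, had 37.2, 35.0, 37.4 and 39.2 CPM in Het and 5.03, 5.09, 5.78 and 5.54 in KO_drug (6.94-fold lower, SE 0.11, adjusted p = 5.14e-07). Notum, a secreted inhibitor of WNT ligands, fell 6.63-fold and Gas1, a growth arrest protein of the membrane, 9.51-fold, from 7.11 ± 1.22 to 0.743 ± 0.084 CPM. These 5 genes were named for a large fall or a small p and without overlap, so that groups far apart were part of the choice.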

How the data were processed

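RNA from the livers of 4 Het and 4 KO_drug mice was measured. Per the labels' protocols, RNA was extracted with an RNeasy mini kit and libraries were made with a TruSeq Stranded Total RNA kit. The authors deposited read counts per gene and FPKM (fragments per kilobase and 1e+06 fragments); the submitters' processing notes name FastQC 0.11.7, StringTie 2.1.3b and the build mm10. For the aligner, annotation and strand setting: not given in the sources used here. In the deposited table, 3 columns of values have no name and were not used.

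Counts as deposited were tested with edgeR 4.0.16 (R 4.3.3) by quasi-likelihood with TMM scaling, on genes with 10 or more counts in at least 4 of the 8 libraries. Benjamini-Hochberg adjustment ran over all 12643 genes tested, with calls made below 0.05. CPM are counts per 1e+06 on the TMM-scaled library sizes, shown as mean ± SD over 4 libraries. A fold against a group with a count of 0 in every library is a lower bound against 3 counts over the group. The p-values measure the spread between these mice, and counting error alone sets the floors. The smallest p that an exact permutation test of 4 against 4 can give is 0.0286, two-sided. Genes of near-identical families (Mup, Cyp, Serpina, Saa) and overlapping genes may share reads, so that their single values are uncertain.

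The members and the 46 gene lists were chosen with earlier results of these data known. Of each list, the 4 called members with the smallest p in its majority direction and the 2 in the other were named, besides Atp7b, all copper and LXR target genes, and the called genes with the largest changes, the smallest p and the highest CPM, at 1 CPM or more and without overlap. Genes named outside this rule were chosen after their values were seen: Hmgcs1, Sqle, Idi1, Stard4, Cdkn1a, Mdm2, Mcm6, Mki67, Pttg1, Hspa5, Xbp1, Krt19, Epcam, Slc39a1, Sesn2, Atf4, Cd9 and H19. Lists share members, among them Scd1, Fasn, Srebf1, Mlxipl, Pnpla3 and Sesn2. Alternatives were total-count scaling, DESeq2 1.42.0, other filters, limma 3.58.1 on log2(FPKM + 0.1) and log2(FPKM + 1), voom with sample weights, the replicate number as a block, and leaving out each library. Promoter windows come from RefSeq (GRCm38.p6). Some members that the rule would name are not reported here.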

Additional observations from a re-analysis of the deposited data

Results flagged for a closer look

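In each group of 4 libraries, a value was singled out when its gap to the nearest of the other 3 was over 0.829 of the group's range (Dixon's critical value for 4 samples). The tests covered the named genes and a few library summaries, and 35 of 378 met this. A rate of about 5% by chance holds only for values chosen without sight of them. Several of these genes were picked after their values were seen, so that the count cannot be set against that rate. The values are CPM, each followed by the range of the other 3 libraries of its group.

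Of the Het libraries, Het 1 stood apart most often. It was low for Cp (646, others 1834 to 1880) and Eda2r (0.5025, others 0.6012 to 0.621). It was high for Cox17 (24.89, others 15.56 to 16.39), Sod1 (762, others 554.7 to 578), Nr1h3 (115.4, others 91.82 to 95.13) and Apoc1 (6051, others 3694 to 4012). It was also high for Sult2a8 (1243, others 744.4 to 809.6) and Krt19 (1.553, others 0.4625 to 0.5733). Het 2 had the highest share of counts in major urinary proteins, 14.4% against 10.68 to 10.99%. Het 3 was high for Vnn1 (7.453, others 3.619 to 3.931) and Acaa1b (731, others 420.9 to 472.9). It was also high for Cyp2a5 (282.4, others 83.96 to 97.16) and Il1rn (3.249, others 1.644 to 1.896). Het 4 was high for Mt2 (106.8, others 2.162 to 16.86), Asns (58.64, others 29.81 to 33.89) and Mup19 (4.116, others 2.632 to 2.878), and low for Pttg1 (14.06, others 19.44 to 20.01).

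Of the KO_drug libraries, KO_drug 2 was low for Abcg5 (71.61, others 326.9 to 374.3), Abcg8 (105.8, others 474.8 to 539.2) and Phlda3 (3.019, others 7.075 to 7.887). It was also low for Mdm2 (24.58, others 37.23 to 39.76) and Bst2 (66.18, others 93.49 to 98.44). It was high for Stard4 (92.36, others 20.44 to 25.22), Cyp7b1 (332.1, others 127 to 151.5) and Igf1 (470.1, others 236.7 to 266). It alone had counts of Tcf24 (0.2359) and Ccr3 (0.1887), with the others at 0. KO_drug 1 was high for Mcm6 (8.123, others 0.5024 to 1.415), Ect2 (46.1, others 19.11 to 21.2) and Mki67 (19.57, others 1.608 to 3.273). It was also high for Wfdc12 (84.69, others 2.783 to 6.401), Tex19.1 (35.21, others 5.024 to 7.316), Slc15a1 (12.51, others 3.658 to 4.923) and Spink1 (15.97, others 2.462 to 3.019). KO_drug 4 was high for Creld2 (20.94, others 11.86 to 12.88).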

How the results depend on the processing

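No gene that was called and is named here changed direction under the alternatives run. Of the named genes that were not called, Cp, Sod1, Nr1h3, Mcm6 and Epcam crossed 0 under at least 1 of them. Medians of lists near 0 also changed sign, such as those of copper handling (0.14), pericentral (0.11) and periportal genes (0.085) with total-count scaling. The number of genes called lower, 1028, was 440 with total-count scaling, 473 with limma on log2(FPKM + 0.1) and 455 on log2(FPKM + 1), and the last setting also gave 586 genes at least 2-fold higher and 103 at least 2-fold lower, where the pseudocount shrinks the folds of low genes. Total-count scaling raised the median log2 change of all genes from 0.0040 to 0.17, and of its 2527 calls 82.6% were higher, against 61.1%; the 2044 genes called under both scalings had the same sign. DESeq2 called 1827 higher and 1305 lower, and voom with sample weights 1888 and 1371. Leaving out each library gave 664 to 1096 genes called lower (664 without Het 2, 671 without KO_drug 3 and 675 without KO_drug 4) and 1262 to 1595 called higher, with fewer samples in each such fit. With the replicate number as a block, the replicate block fit called 2167 genes, 1366 higher and 801 lower. Deviations of same-numbered libraries correlated at -0.083, 0.0878, 0.0825 and 0.144 for replicates 1 to 4. Of these 4 numbers, 3 matched best with themselves (2, 3 and 4). Whether the numbers pair the mice was not tested, and the main fit used no block. In the replicate block fit the log2 change of Srebf1 was 1.89 (adjusted p = 0.0519 by edgeR) and that of Cyp7a1 0.97 (adjusted p = 0.00857), and 5 cholesterol synthesis and 10 conjugation members were lower. The cause of these shifts was not tested. At this depth, genes with few counts in Het, such as mitotic ones, have uncertain folds.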

Other observations

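Genes of fetal and tumour liver included 13 tested members, of which 5 were higher in KO_drug, beside 12.8% of all genes. The list's median log2 change was 0.87, and 2 were called when 10 counts were required in all 8 libraries. Afp, the fetal serum protein, rose from 2.67 ± 1.14 to 16.2 ± 5.52 CPM (SD, n = 4 each; 6.06-fold, adjusted p = 0.000355 by edgeR). Ly6d, a surface protein of epithelial cells, rose 5.60-fold (adjusted p = 0.0034). H19, an imprinted non-coding RNA, had a log2 change of 4.34, and of 2.88 without KO_drug 1; it was not called by voom with sample weights (2.91, adjusted p = 0.079) or by limma on log2(FPKM + 1) (0.85, adjusted p = 0.114). Scd2 and Spink1 were the other called members.

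Of 28 tested nuclear receptors, 2 were higher and 5 lower, beside 12.8% and 8.13% of all genes. The higher ones were Rarb (log2 1.01) and Nr1i2, the pregnane X receptor (0.93). With total-count scaling 4 were higher and 0 lower. The lower members numbered 1 to 3 when Het 2, Het 3, Het 4 or any of KO_drug 1, KO_drug 3 and KO_drug 4 was left out, and the higher ones 1 without Het 2, KO_drug 3 or KO_drug 4.

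Of 19 clock genes, 1 was higher and 1 lower, beside 12.8% and 8.13% of all genes. The list's median log2 change was 0.25. Cry1, a repressor of the clock, had 9.14, 14.9, 18.3 and 12.6 CPM in Het 1 to 4 and 4.62, 2.88, 3.92 and 2.26 in KO_drug 1 to 4, 4.02-fold lower (adjusted p = 0.000571 by edgeR). All KO_drug libraries lay below all Het libraries. Cry2, its relative, had a log2 change of 0.54 and lost its call when Het 1, Het 2, Het 4, KO_drug 2, KO_drug 3 or KO_drug 4 was left out, or with no filter on low counts.

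Of 11 tested immediate early genes, 2 were higher, beside 12.8% of all genes. These were Atf3 and Klf6 (1.97-fold, adjusted p = 0.00649 by edgeR). The list's median log2 change was 0.17, and -0.12 without Het 1. Of 6 tested erythroid genes, 0 were called by edgeR or DESeq2, 1 was higher by voom with sample weights and 1 by edgeR at an unadjusted p under 0.05; their summed level was 182.68 to 1739.7 CPM in Het and 226.5 to 696.88 in KO_drug.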
